A study of Mus musculus with 4 samples.

Results

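Divergent gene pairs that share a promoter were examined for occupancy by RYBP in mouse mesoderm. A divergent region was a region of the authors' merged RYBP list, narrower than 4000 bp, that held the start sites of protein-coding genes on both strands, from different genes, with the minus-strand start upstream of the plus-strand start. Of 22409 merged regions, 388 met this rule. Their closest divergent pairs comprised 776 genes, with 379 regions holding 2 genes and 9 holding 3. None lay on the X chromosome. They were set beside 6241 regions narrower than 4000 bp that held the start of a single gene. The 2 ChIP samples and 2 input samples came from wild-type J1 embryonic stem cells (strain given as C57Bl/6 X Sv129) differentiated as embryoid bodies to day 3.75 by the labels, though the methods of the study place the RYBP experiment slightly later. FLK1+ mesoderm, the population that gives rise to blood and endothelium, was isolated, cross-linked with a long-arm protein cross-linker and formaldehyde, and precipitated with an antibody to DEDAF, another name of RYBP. GEO's design text mentions SCL ChIP and PDGFRa- cells, but the series title and the antibody name RYBP. Both ChIP samples were replicates of the same condition, from independent differentiations according to that design text, and the inputs were not analysed here.

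RYBP is a subunit of non-canonical Polycomb repressive complex PRC1, which places a ubiquitin on histone H2A, and it also belongs to a form of this complex that keeps germline genes silent. These complexes gather at CpG islands, stretches of unmethylated CpG-rich DNA that cover most promoters of widely expressed genes. At a bidirectional promoter, transcription starts from neighbouring sites on opposite strands and runs outwards. Such promoters are usually CpG islands without a TATA box, and many of their genes serve DNA repair, mitochondria or RNA metabolism.

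The DNA between the start sites is shown for the divergent regions with the highest RYBP enrichment in both replicates, where this interval was at most 300 bases and held no annotated exon. Each sequence is the plus strand of mm9, 5′ to 3′, with the minus-strand gene named first. Capitals mark matches to any of 12 motifs searched on both strands, which are spelled out further on.
B3galt6/Sdf4, chr4:155366788-155366980: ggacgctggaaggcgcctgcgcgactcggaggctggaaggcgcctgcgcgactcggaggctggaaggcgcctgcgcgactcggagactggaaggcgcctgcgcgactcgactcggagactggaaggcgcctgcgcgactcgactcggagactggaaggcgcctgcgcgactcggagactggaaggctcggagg
Smc1b/Ribc2, chr15:84962388-84962528: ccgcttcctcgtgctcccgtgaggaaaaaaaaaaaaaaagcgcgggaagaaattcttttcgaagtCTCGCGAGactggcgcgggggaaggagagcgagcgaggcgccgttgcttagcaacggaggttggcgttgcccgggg
BC055324/2810422O20Rik, chr1:165924928-165925019: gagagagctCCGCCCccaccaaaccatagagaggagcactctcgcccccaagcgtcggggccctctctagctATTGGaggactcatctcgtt
Ddx25/Pus3, chr9:35366056-35366179: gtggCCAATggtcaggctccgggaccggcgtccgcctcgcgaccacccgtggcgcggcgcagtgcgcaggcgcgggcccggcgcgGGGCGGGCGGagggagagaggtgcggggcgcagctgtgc
Gpc2/Stag3, chr5:138721234-138721467: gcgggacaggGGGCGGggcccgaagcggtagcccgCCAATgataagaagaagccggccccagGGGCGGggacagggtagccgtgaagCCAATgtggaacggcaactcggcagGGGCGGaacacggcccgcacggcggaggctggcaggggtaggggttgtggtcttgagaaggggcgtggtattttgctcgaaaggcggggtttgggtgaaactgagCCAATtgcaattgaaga
Nrg4/AI118078, chr9:55174652-55174719: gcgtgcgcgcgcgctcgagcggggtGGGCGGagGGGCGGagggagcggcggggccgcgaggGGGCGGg
Recql/Golt1b, chr6:142335608-142335740: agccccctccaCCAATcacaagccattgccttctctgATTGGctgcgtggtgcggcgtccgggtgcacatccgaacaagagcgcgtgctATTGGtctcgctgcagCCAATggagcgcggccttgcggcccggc

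These intervals differed in their motifs and held from 5.43 to 20.6 CpG per 100 bp. The interval of Recql and Golt1b held 4 copies of the CCAAT box bound by NF-Y (written CCAAT or ATTGG by strand), and that of Gpc2 and Stag3 held 3 CCAAT boxes and 3 copies of GGGCGG, the box of SP and KLF factors. Between Nrg4 and AI118078 there were 3 copies of GGGCGG in 68 bases and no CCAAT. Between Smc1b and Ribc2 the palindrome CTCGCGAG was the only match. The interval of B3galt6 and Sdf4 held no match, and it is a tandem repeat, in which 71.7% of bases equalled the base 27 positions further on. Reads with more than 2 placements were dropped at alignment according to the methods, so values at this repeat are uncertain.

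The strongest of the divergent regions lay between 4632404H12Rik and Ube2q1, a ubiquitin-conjugating enzyme (chr3:89576717-89578002). Its fold enrichment, the ratio of ChIP pile-up to local background computed by the authors' peak caller, was 10.7 in replicate 1 and was 7.63 in replicate 2. Gm4969 and Fbxo46, an F-box protein, shared a region (chr7:19702312-19705440) enriched 6.16-fold in replicate 1 and 8.37-fold in replicate 2. B3galt6, a galactosyltransferase of proteoglycan synthesis, and Sdf4 shared a region (chr4:155365926-155367699) at 6.67 and 5.95, and there the replicate 1 peak covered neither start site. Replicate 1 was therefore the higher at Ube2q1 and at Sdf4 and the lower at Fbxo46.

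Smc1b, a meiotic cohesin subunit, and Ribc2 (chr15:84961920-84962974) were enriched 5.71-fold in replicate 1 and 6.58-fold in replicate 2. Stag3, another meiotic cohesin subunit, and Gpc2, a glypican, (chr5:138720959-138722461) had 6.97 and 4.97. Ddx25, a testis RNA helicase, and Pus3, a pseudouridine synthase, (chr9:35365693-35366516) had 5.47 and 7.23. Replicate 2 was the higher at Smc1b and Ddx25 and the lower at Stag3.

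The remaining regions among the 10 strongest were BC055324/2810422O20Rik (chr1:165924354-165925722) enriched 6.36-fold in replicate 1 and 5.56-fold in replicate 2, and AI118078/Nrg4 (chr9:55173615-55175304), which includes an ERBB ligand, with 4.81 and 5.92. Recql, a DNA helicase, and Golt1b (chr6:142335144-142336455) had 5.49 and 4.81, and Lsm1, an mRNA decay factor, and Bag4 (chr8:26895048-26896400) had 5.28 and 4.75. Across the 10, replicate 1 was higher in some and replicate 2 in others, whereas among the 261 divergent regions called in both, replicate 2 was the higher in 207 (79.3%). Pearson's r between the replicates over these 261 regions was 0.526 and Spearman's rho 0.473. This is a correlation across regions, which share the same libraries and base composition and are not independent replicates.

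**Figure D1:**
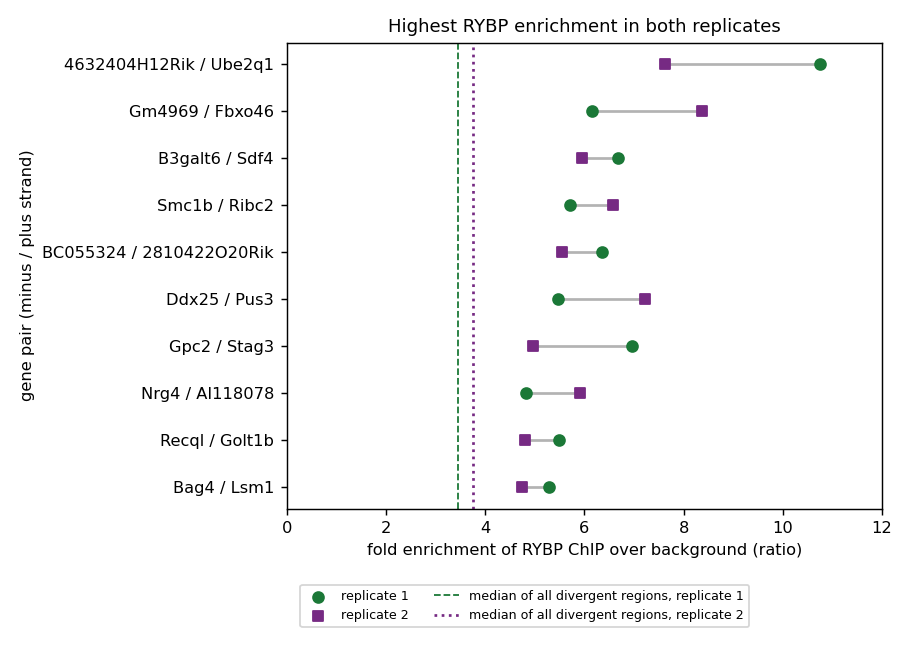
Fold enrichment of RYBP ChIP over background (x axis, a ratio) in replicate 1 (circles) and replicate 2 (squares) for the 10 divergent regions with the largest smaller-of-both value; vertical lines are the medians over all divergent regions, 3.44 in replicate 1 and 3.75 in replicate 2. The regions were chosen for these values; Ube2q1 stands highest in replicate 1 at 10.7 and Fbxo46 in replicate 2 at 8.37.

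The replicates were next compared over all members. A divergent region was found in both replicates in 261 of 388 cases, a share of 67.3% (exact 95% binomial interval 62.4% to 71.9%, which covers counting error over regions only). For single-gene regions the share was 78.0% (76.9% to 79.0%), and for all merged regions narrower than 4000 bp it was 42.5%. Most of the shortfall lay in replicate 1, which contained 71.6% of divergent and 80.9% of single-gene regions, whereas replicate 2 contained 95.6% and 97.1%. As a result, 110 divergent regions (28.4%) were called in replicate 2 alone and 17 in replicate 1 alone. The highest fold enrichment among these was 4.56 at Xpc/Lsm3, a DNA damage sensor and an RNA-binding protein, in replicate 2, and 3.83 at Lrrc51/Numa1, the second a spindle protein, in replicate 1. Peaks of replicate 1 taken alone gave 192 divergent regions.

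Enrichment at divergent regions was slightly lower than at single-gene regions. In replicate 1 the median fold enrichment was 3.44 over 278 divergent regions (quartiles 3.07 and 4.0) and 3.55 over 5051 single-gene regions (quartiles 3.19 and 4.01). In replicate 2 it was 3.75 over 371 divergent regions (quartiles 3.32 and 4.28) and 3.97 over 6057 single-gene regions (quartiles 3.49 and 4.64). The quartiles of both classes overlapped over most of their range. The difference, divergent minus single-gene, was -0.103 in replicate 1 and -0.224 in replicate 2, with a mean of -0.163 ± 0.0857 (SD, n = 2). Taken from replicate 2 peaks only, without merging, the difference was -0.261. With 2 replicates an exact two-sided permutation test cannot give a p-value below 0.5, so none was made for this or any later difference.

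Width is tied to the rule, because a region must span the distance between its start sites, and wide regions are found more often. The median width was 1225 bp for divergent and 1258 bp for single-gene regions, a difference of -33 bp that became 5.5 bp with replicate 1 peaks alone. Within 4 width ranges the median fold enrichment of divergent regions was the lower in all comparisons but 1, that of regions of 1500 to 2000 bp in replicate 1, where the difference was 0.011. Below 1000 bp, 34.7% of 147 divergent regions (27.0% to 43.0%) and 52.8% of 2299 single-gene regions (50.7% to 54.8%) were found in both replicates. From 1000 to 1500 bp the shares were 80.9% and 86.0%, from 1500 to 2000 bp 86.2% and 94.8%, and above that 98.5% and 98.7%. The gap was thus widest among narrow regions, at -18.1 percentage points, and -0.252 points among the widest.

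**Figure D2:**
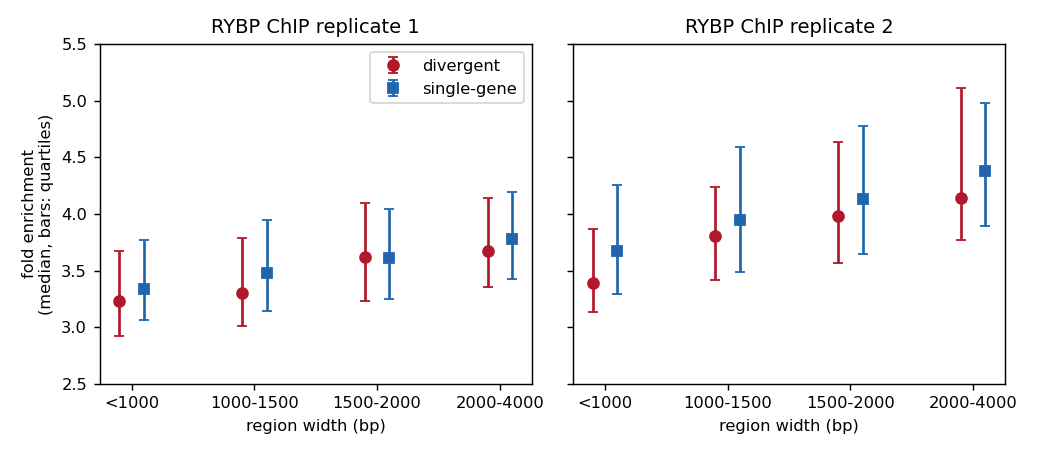
Median fold enrichment (y axis, a ratio, not starting at 0; bars are quartiles) of divergent (circles) and single-gene (squares) regions in 4 width ranges (x axis, bp), one panel per replicate. Fold enrichment rose with width in both classes, from 3.39 to 4.14 for divergent regions in replicate 2, and the quartile bars of the classes overlap in every range.

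At the limit of the rule, the widest divergent regions were those of Klhl29/2810032G03Rik (3787 bp), Zcchc3/6820408C15Rik (3798 bp) and Chpf/Tmem198 (3839 bp), with fold enrichments of 4.29, 3.87 and 4.73 in replicate 1 and 4.66, 4.97 and 5.42 in replicate 2. Just beyond it lay Mtx1/Muc1 (4010 bp), Plcd3/Acbd4 (4161 bp) and Abhd8/Mrpl34 (4310 bp), with 3.68, 3.60 and 3.29 in replicate 1 and 3.43, 4.63 and 3.75 in replicate 2. In all, 16 wider regions met the other parts of the rule.

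The start sites of a pair lay close together. Their distance had a median of 134.5 bp (quartiles 69 and 251 bp). The closest pairs found in both replicates were Tubgcp2/Zfp511 at 1 bp, and Dhrs1/2610027L16Rik and Slc7a6os/Prmt7 at 3 bp each. Tubgcp2, a subunit of the gamma-tubulin complex, and Zfp511 were enriched 3.49-fold in replicate 1 and 3.62-fold in replicate 2. Dhrs1/2610027L16Rik had 3.96 and 3.93, and Slc7a6os/Prmt7, the second an arginine methyltransferase, 2.92 and 3.18. Among the most distant were Evc/Evc2, partners at the cilium base that act in Hedgehog signalling, at 1584 bp, and Tshz1/Zadh2 at 1596 bp. Evc/Evc2 had 3.36 in replicate 1 and 3.92 in replicate 2, and Tshz1/Zadh2 4.42 and 6.57. Replicate 2 was higher at both of these distant pairs.

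Over all members, wider spacing went with wider regions and lower CpG density. The 154 pairs under 100 bp apart had a median region width of 953 bp and 8.48 CpG per 100 bp, and 61.0% (52.9% to 68.8%) were found in both replicates. The 41 pairs at least 500 bp apart had 2043 bp and 6.25 CpG per 100 bp, and 82.9% (67.9% to 92.8%) were found in both. Median fold enrichment moved from 3.31 to 3.58 in replicate 1 and from 3.63 to 3.92 in replicate 2 between these ranges. The part of region width in this was not tested.

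A merged region is a union of peaks, so each replicate was asked whether its own peaks covered the start sites. At regions called in 1 replicate alone the rule itself makes its peaks cover both starts, so the 261 regions found in both replicates are given here. Among these the rule still acts, because a start missed by 1 replicate must be covered by the other. The shares of the replicates are therefore not independent of each other or of the rule. In replicate 2, peaks covered both starts at 242 of them (92.7%, interval 88.9% to 95.6%) and neither at 12. In replicate 1 they covered both at 171 (65.5%, 59.4% to 71.3%) and neither at 71. At single-gene regions found in both, the start was covered in 73.1% in replicate 1 and 90.9% in replicate 2. This concerns 1 start, so it is not the same measure as covering both. Its counterpart at divergent regions is at least 1 covered start, which failed at 27.2% in replicate 1 and 4.60% in replicate 2. Peaks of replicate 1 that missed the starts lay to the side of them, as at Dhrs1/2610027L16Rik, Helq/Mrps18c and Dbf4/Slc25a40.

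Divergent regions were spread on both sides of the midpoint between the starts. The centre of the region lay between the starts in 139 of 388 cases (35.8%, 31.0% to 40.8%), on the side of the minus-strand gene in 134 and on that of the plus-strand gene in 115. The absolute distance from the midpoint had a median of 138.5 bp (quartiles 53 and 268 bp). The rule requires a region to hold both starts, so it limits how far the centre can lie from them. The share also depends on spacing and width, with medians of 134.5 bp and 1225 bp. The replicate peaks were centred between the starts in 24.5% of regions in replicate 1 and 35.3% in replicate 2. At single-gene regions the centre lay inside the gene in 72.6% of cases, with a median of 151 bp past the start. A centre beyond either start of a divergent pair is inside a gene by definition, so these shares are not the same quantity.

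**Figure D3:**
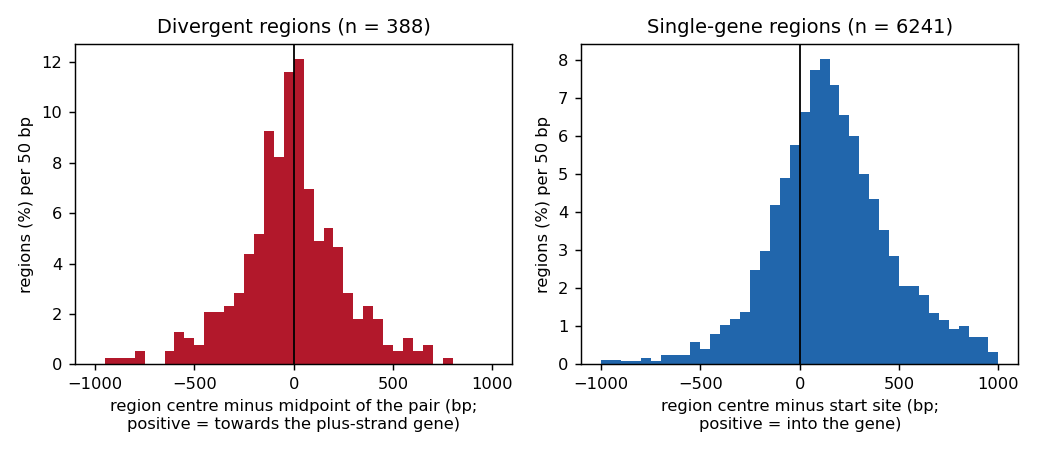
Share of regions (y axis, percent per 50 bp) by the distance of the region centre (x axis, bp) from the midpoint of the pair for 388 divergent regions (left) and from the start site, positive into the gene, for 6241 single-gene regions (right); 2 divergent and 165 single-gene regions beyond 1000 bp are not drawn. Divergent regions lie on either side of 0, with a median absolute distance of 138.5 bp, and single-gene regions have a median of 151 bp inside the gene; the strand of a pair is arbitrary, so the panels do not show the same quantity.

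Where a divergent region was off centre, it tended to lie on the side richer in CpG, a comparison chosen after values were seen. Of 246 regions centred inside either gene whose first 500 bp differed in CpG count, 174 lay on the side of the gene with more (70.7%, 64.6% to 76.3%). For the peaks of each replicate the share was 65.0% of 206 in replicate 1 and 70.6% of 238 in replicate 2. CpG density over the whole region had a median of 7.55 per 100 bp at divergent and 7.03 at single-gene regions, and the medians of GC content were 62.5% and 62.3%. This CpG difference of 0.527 was 0.0593 with replicate 1 peaks alone. Among regions with at least 8 CpG per 100 bp, 62.4% of 170 divergent and 74.0% of 2343 single-gene regions were found in both replicates, from 5 to 8 CpG per 100 bp 69.3% of 163 and 83.3% of 2507, and below 5 CpG per 100 bp 76.4% of 55 and 75.1% of 1391. Median fold enrichment, divergent minus single-gene, differed by -0.130 in replicate 1 and -0.407 in replicate 2 at 8 or more. From 5 to 8 the differences were -0.108 and -0.265, and below 5 they were -0.0137 and -0.0379.

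The question was then turned round, to ask how many annotated divergent pairs RYBP occupied. The annotation held 796 divergent pairs of protein-coding starts at most 1000 bp apart. Both starts lay inside a merged region for 386 of them, 1 start for 52 and neither for 358. Of the pairs' start sites 51.8% were inside a merged region, against 33.8% of 19698 lone start sites, which had no other protein-coding start within 1000 bp, and 35.8% of all protein-coding starts. Inside regions found in both replicates the shares were 33.9% and 27.2%, with 28.2% over all starts. By the peaks of each replicate the pairs exceeded the lone starts by 4.22 percentage points in replicate 1 and 16.9 in replicate 2, a mean of 10.6 ± 8.98 (SD, n = 2). The starts of a pair share a region, so intervals over starts are too narrow. Taken by minus-strand starts alone the share was 51.9% (48.3% to 55.4%), and by plus-strand starts alone 51.6% (48.1% to 55.2%).

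This order turned round among CpG-rich start sites, those where the surrounding 500 bp on either side held 3 or more CpG per 100 bp. Such sequence surrounded 93.5% of pair starts and 51.9% of lone starts. Among them, 54.4% of pair starts and 61.8% of lone starts were inside a merged region, beside 60.6% of all CpG-rich starts. For regions found in both replicates the shares were 35.7% and 50.7%, beside 48.5%. Pairs minus lone starts gave -12.5 percentage points with the peaks of replicate 1 and -6.56 with those of replicate 2, a mean of -9.52 ± 4.18 (SD, n = 2). Minus-strand starts alone gave 54.4% (50.8% to 58.1%) in merged regions and plus-strand starts alone 54.4% (50.7% to 58.0%), and the upper bounds of both lay below the 60.9% to 62.8% of lone starts. The gap was widest between 5 and 6 CpG per 100 bp, where 36.6% of 276 pair starts and 57.2% of 1629 lone starts were inside a merged region. From 2 to 3 CpG per 100 bp pair starts stood higher, at 30.6% of 36 against 11.9% of 1676.

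**Figure D4:**
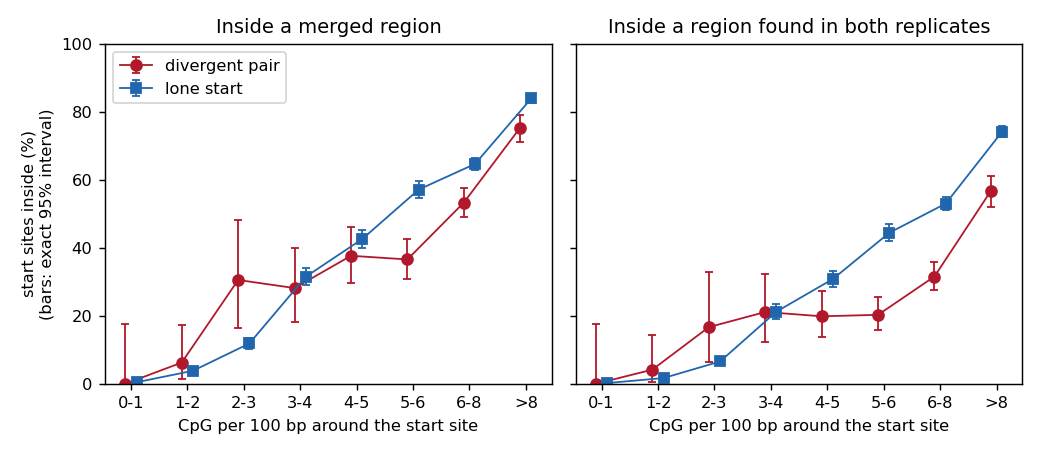
Share of start sites inside a region (y axis, percent; bars are exact 95% intervals over start sites) by CpG per 100 bp around the start (x axis) for divergent pairs (circles) and lone starts (squares), with all merged regions left and regions found in both replicates right. Shares rise with CpG for lone starts and, less evenly, for pairs. From 3 CpG per 100 bp upwards pairs lie below lone starts, as with 53.3% against 64.7% between 6 and 8 (left). Between 3 and 4 the bars overlap in both panels, and between 4 and 5 in the left panel.

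Motifs were counted in windows of 300 bp centred on the midpoint of each pair or on the start of each single gene, on both strands. The widest difference was in the ETS motif CCGGAAG, bound by GABP and its relatives, which was found in 27.1% of divergent regions (22.7% to 31.8%), 12.9% of single-gene regions and 11.3% of all protein-coding starts. Annotated pairs with no start in a merged region held it in 29.1% (24.4% to 34.1%), and their interval overlapped that of the divergent regions. CCAAT (NF-Y) was found in 39.9% of divergent regions (35.0% to 45%), 29.3% of single-gene regions, 47.2% of pairs with no start in a region and 35.7% of all starts. GCGCATG (NRF1) was found in 8.25%, 5.72%, 10.1% and 4.43% in the same order, and AAGATGGC (YY1, a zinc finger protein that RYBP binds) in 6.44%, 3.89%, 10.3% and 3.79%. For these last motifs the interval of divergent regions reached 5.71% and 4.21% at its lower end, close to the single-gene shares.

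GGGCGG (SP/KLF) was more frequent in occupied than in unoccupied pairs. It was found in 74.5% of divergent regions (69.8% to 78.8%), 77.0% of single-gene regions, 58.9% of pairs with no start in a region (53.6% to 64.1%) and 45.8% of all starts. The other motifs differed little between divergent and single-gene regions. CACGTG, the E-box of MYC, MAX and MGA, was found in 10.8% and 9.95%, GGCGGGAA (E2F) in 5.41% and 4.97%, TGACGTCA (CREB/ATF) in 4.38% and 2.95%, and CTCGCGAG (ZBTB33) in 2.58% and 1.78%. Over all starts these were found in 7.29%, 2.91%, 2.23% and 1.16%. TATAAA, the TATA box, was found in 4.12% and 4.02%, against 10.8% of all starts. Of the motifs of blood regulators, AGATAA (the GATA motif) was found in 4.12% (2.38% to 6.61%) and 2.44%, against 8.46% of all starts. CAGATG, the E-box of SCL, was found in 8.76% and 8.64%, against 14.3% of all starts. Matches may overlap: the SP/KLF motif can overlap itself and the E2F motif. Median GC content of the windows was 65.3% at divergent and 68.3% at single-gene regions and 59.0% at pairs with no start in a region, with 9.0, 9.67 and 6.83 CpG per 100 bp. The part of base composition in the GGGCGG shares was not tested.

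**Figure D5:**
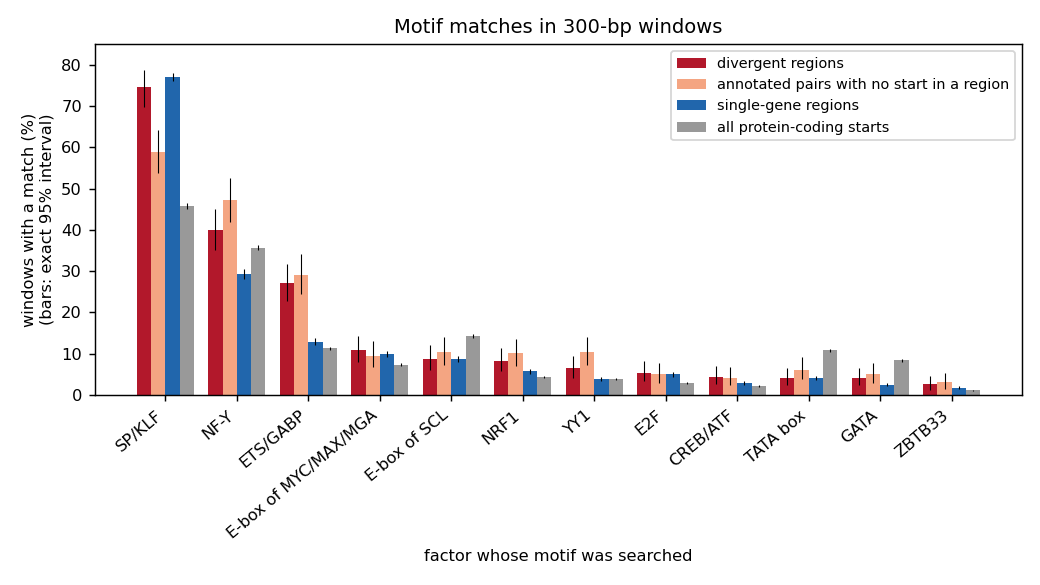
Share of 300-bp windows with at least 1 match (y axis, percent, from 0; bars are exact 95% intervals) to the motif of each factor (x axis) in divergent regions, annotated pairs with no start in a region, single-gene regions and all protein-coding starts. ETS/GABP stands at 27.1% and 29.1% in the pair sets and at 12.9% in single-gene regions, whereas SP/KLF is at 74.5% and 77.0% in the occupied sets and 58.9% in the unoccupied pairs. Windows of the pair sets are centred on midpoints and those of the other sets on starts, so their placement differs.

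The 776 genes of the divergent pairs were counted in 9 groups defined by gene symbol. Genes with other symbols were not counted, such as Smc6 and Helq for DNA repair and Rpl36al for translation. DNA repair and replication genes made up 24 of 776 genes (3.09%, 1.99% to 4.57%), against 0.786% of genes at single-gene regions, 2.71% of all genes in annotated divergent pairs and 0.644% of all protein-coding genes. The share was therefore near that of divergent pairs in general. Of their 23 regions, 13 were found in both replicates, beside 32 of 49 single-gene regions of this group. Over all divergent regions the share was 67.3%, and over all single-gene regions it was 78.0%. Pole, the catalytic subunit of DNA polymerase epsilon, with Pxmp2 (chr5:110714284-110715746) was enriched 4.61-fold in replicate 1 and 7.15-fold in replicate 2. Apex1, the main abasic-site endonuclease, with Osgep (chr14:51544232-51545147) had 4.35 and 4.41.

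Mitochondrial protein genes numbered 17 (2.19%), against 1.09% at single-gene regions, 3.09% in annotated pairs and 1.13% of all genes. Of their 16 regions 7 were found in both replicates, beside 41 of 68 single-gene regions of the group. For this and the next groups, the shares over all regions were 67.3% of divergent and 78.0% of single-gene regions. Helq/Mrps18c, which includes a mitochondrial ribosomal protein, had 4.25 in replicate 1 and 4.19 in replicate 2, Dbf4/Slc25a40, which includes the activator of the CDC7 kinase, 4.12 and 4.22, and Slc25a27/Cyp39a1 3.81 and 3.91. RNA processing and RNA polymerase genes numbered 17 (2.19%), against 0.690%, 2.59% and 0.752% in the same order, in 17 regions. Of these regions 12 were found in both replicates, beside 21 of 43 single-gene regions of the group. Besides the Lsm1 and Ddx25 regions, the strongest was Polr3g/Mblac2, the first an RNA polymerase III subunit, with 4.16 and 4.14. Translation genes numbered 11 (1.42%, against 0.834%, 1.45% and 0.811%), with 4 of 11 regions found in both replicates, beside 36 of 52 single-gene regions. Banf1/Eif1ad had 4.29 and 4.15, S100pbp/Yars, the tyrosyl-tRNA synthetase, 3.84 and 3.68, and Kars/Terf2ip, the lysyl-tRNA synthetase with a telomere protein, 3.09 and 4.0. Rpl36al/Mgat2, which symbol matching left out of this group, had 4.22 in replicate 1 and 4.35 in replicate 2.

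Cell cycle and proteasome genes were as frequent at divergent as at single-gene regions, with 7 genes (0.902%) against 0.882%. Their share was 1.07% in annotated pairs and 0.702% of all genes. Beside Ube2q1 they included Thoc4/Anapc11, with a subunit of the anaphase-promoting complex, at 4.29 in replicate 1 and 5.24 in replicate 2, and Psma7/Ss18l1, with a proteasome core subunit, at 3.67 and 5.55. Zfp genes numbered 7 (0.902%), against 1.41% at single-gene regions, 1.07% in annotated pairs and 1.53% of all genes. Zfp277/Dock4 had 3.86 and 5.37 and Ccdc92/Zfp664 3.61 and 5.80.

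Histone genes accounted for 18 of these genes (2.32%, 1.38% to 3.64%), against 0.337% at single-gene regions, 1.70% in annotated pairs and 0.342% of all genes. They lay in 9 regions, each an H2A gene facing an H2B gene. Hist1h2an/Hist1h2bp (chr13:21878987-21879853) was enriched 3.99-fold in replicate 1 and 4.12-fold in replicate 2, Hist1h2bf/Hist1h2ad 3.55 and 4.43, and Hist1h2bq/Hist1h2ao 3.35 and 3.94. Over the 9 regions the medians were 3.30 and 4.03, against 3.44 and 3.75 over all divergent regions. Histone genes are near-identical copies, so reads may be shared between them or dropped at alignment and these values are uncertain.

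Developmental regulators are the genes most often linked with Polycomb. The developmental transcription factor group had 2 of 776 genes (0.258%, 0.0312% to 0.928%), against 1.31% at single-gene regions, 0.316% in annotated pairs and 1.27% of all genes, so its share was near that of divergent pairs in general. Genes were matched by symbol, so developmental regulators with other symbols, such as Tshz1, were not counted. Neither of the 2 counted is a lineage-specifying factor. Foxm1 is a forkhead protein of the cell cycle, and Lmo7 carries a LIM domain and acts at the cytoskeleton and nuclear envelope. Foxm1 with 5930416I19Rik (chr6:128312479-128313388) had 2.99 in replicate 1 and 4.40 in replicate 2, and Lmo7 with Gm9922 (chr14:102128475-102130056) had 3.30 and 4.52. Genes of Polycomb subunits were at 0 of 776, an exact upper bound of 0.474%. This stood against 18 genes (0.289%) at single-gene regions, 1 gene in annotated pairs and 0.176% of all genes. The upper bound lay above all of these shares.

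Of 12 gene pairs long known to share a bidirectional promoter, 6 were annotated with start sites in divergent order and 2 of these were members. Over all 796 annotated divergent pairs, both starts lay inside a merged region for 48.5%. Atm, the kinase that signals double-strand breaks, with Npat, the activator of histone transcription, (chr9:53344843-53345636) was enriched 3.55-fold in replicate 2 and had no peak in replicate 1. Mcm4, a subunit of the replicative helicase, with Prkdc, a kinase of end joining, (chr16:15636647-15638110) had 4.46 in replicate 2 and likewise no peak in replicate 1. Neither was thus found in both replicates. At Gart/Son only the start of Son, a splicing factor, lay in a region, with 4.51 in replicate 1 and 3.07 in replicate 2. Brca1/Nbr1, Rad51c/Tex14 and Mrps12/Sars2 had no start in a merged region, which says only that no peak was called there.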

How the data were processed

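RYBP ChIP-seq had been done on 2 replicates with 2 inputs, which were not analysed here. Per the methods and the submitters' processing notes, paired reads were aligned to mm9 with Bowtie 1.1.2b, keeping reads with at most 2 placements, duplicates were removed, and broad peaks were called per replicate with MACS2 2.0.10. The fold enrichment in the deposited lists is a linear ratio over local background. The authors' lists further hold the p-value and the q-value as −log10, and a score that was not used. The deposited lists hold no read depth, and none entered a calculation, so precision rests on the number of regions and intervals cover counting error only. The authors' merged list, with positions only, was rebuilt in full (22409 of 22409 regions) as the union of 14794 and 18154 peaks, with replicate 2 starts moved by 1 bp.

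Groups came from the labels. Start sites were the 5′ ends of 22340 protein-coding gene records of the GENCODE annotation of mm9 on the autosomes and X. A region was found in a replicate when a peak overlapped it by at least 1 bp, and took the highest fold enrichment among such peaks. Sequence, CpG and motifs came from the mm9 genome. Classes were compared by counts and medians, with exact intervals (scipy 1.17.1) and no test. The functions were tested on simulated data. Named regions were the 10 with the largest smaller-of-both fold enrichment, 12 textbook pairs, the 3 closest and 3 most distant pairs, developmental or Polycomb pairs, the highest of each replicate alone and up to 3 per gene group; a few regions that this rule names are not reported here. Members, lists and measures were chosen with earlier results of these data known. Alternatives were transcript starts, stricter peaks, regions in both replicates, each replicate alone, a width range, other pair distances and windows, and regions with exactly 2 genes or no other start.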

Additional observations from a re-analysis of the deposited data

How the results depend on the processing

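Of 59 alternative values of the region results, 39 were counted as the same, 16 as moved and 4 changed sign. The limit was the spread between replicates or the counting interval. For the number of divergent regions the limit was instead a fixed ratio to the main count of 388. By that ratio, counts from 261 to 527 were taken as the same. The number of divergent regions was 175 among regions of 1000 to 2000 bp, and 192 to 357 with a single replicate. The difference in median width (main value -33 bp) changed sign with every protein-coding transcript start (24 bp) and with −log10 q of at least 2 (2 bp), ran from -6.5 to 5.5 bp with a single replicate, and was -43 bp for regions of 1000 to 2000 bp, -48 bp with exactly 2 genes and -5.5 bp with no start of another gene type in the region. The difference in CpG density (0.527) was 0.307 with −log10 q of at least 2, 0.316 in regions found in both replicates, and 0.0593 to 0.329 with a single replicate. The difference in fold enrichment stayed negative, from -0.261 to -0.223 with a single replicate. The excess of pair starts inside a region (17.9 percentage points) was 6.73 in regions found in both replicates, 4.22 to 16.9 with a single replicate, and -7.41 among CpG-rich starts. The share centred between the starts (35.8%) was 33.2% with transcript starts, 33.1% for regions of 1000 to 2000 bp and 33.3% to 36.4% with a single replicate. Of 24 alternative motif values, 3 changed sign, the TATA box at -0.263 points in the wider window and the E-box of SCL at -0.725 there and -1.02 in regions found in both replicates. The cause of these changes was not tested. The share found in both replicates and the coverage of both starts have no value with a single replicate, nor the former among regions found in both, nor the start-site share with exactly 2 genes or no other start. No paired analysis was possible because the samples with files form a single group; differences between classes of regions were taken within each replicate. The peak lists hold no read depth, the study lists more mapped reads for replicate 1, which has fewer peaks, and a replicate without a peak may hold signal below the caller's threshold.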

Other observations

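In 193 regions the start sites of opposite genes were annotated in overlapping order, with the plus-strand start upstream of the minus-strand start, so that the transcripts overlap at their first bases. They were not members, but several textbook bidirectional promoters are among them. Paics and Ppat, which encode enzymes of purine synthesis, were enriched 5.82-fold in replicate 1 and 6.05-fold in replicate 2. Hspd1/Hspe1, the mitochondrial chaperonin genes, had 2.78 and 3.81, and Col4a1/Col4a2, the basement membrane collagens, 3.65 and 3.57. At Surf1/Surf2 only the start of Surf2 lay in a region, found in replicate 2 alone at 3.74, and Sirt3/Psmd13 had no start in a region. In all, 8 of the 12 textbook pairs, in either order, had at least 1 start in a merged region. Of the 796 annotated divergent pairs, 386 had both starts and 52 had 1 start inside.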
